A study of Mus musculus with 23 samples.

Results

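The untreated libraries of a T cell receptor (TCR) sequencing series in Nras-mutant mouse melanoma are described here, with D11 set against D4. They were chosen by label as all libraries given no drug, and they are 5 of the 23 libraries: 2 at D11 and 3 at D4. All TRA and TRB entries of these libraries were used. They held 2346 of the 35389 TRB clonotypes and 2467 of the 29047 TRA clonotypes of the series, a clonotype being defined by its V and J segments together with its CDR3 protein sequence. At D11 there were 1045 TRB and 1141 TRA clonotypes, and at D4 there were 1310 TRB and 1352 TRA clonotypes.

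Per the labels, the samples came from a syngeneic mouse model built on NIL, a murine melanoma cell line with the Nras Q61R mutation that had been exposed to ultraviolet light to add mutations. Control D11 and control D4 received no drug, and both carried the same line. The 18 treated libraries received trametinib, which blocks MEK, BGB-283, which blocks RAF-family kinases, or both together (combination), with 3 libraries for each drug and day. The labels do not give the mouse strain or age, the event from which the days were counted, or whether each library came from its own mouse. The p-values below therefore reflect library-to-library spread, which may be technical. The tissue label names the melanoma cell line. Since the kit read TCR transcripts alone, no marker of tumour or of other cells was measured against that label.

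Each T cell carries a receptor of an alpha and a beta chain. Each chain is assembled from a V and a J segment, with a D segment between them in beta, and bases are trimmed and added at the joints. The joint encodes CDR3, the loop that contacts the antigen peptide, and its length varies with the J segment and with the bases trimmed or added. A T cell that recognises its antigen divides, and its daughters carry the same receptor, so a clone that has divided shows as one clonotype with a large share of transcripts. The D segment and the random bases make beta CDR3 more diverse than alpha CDR3, and beta is the chain most often used to count clones.

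Depth differed more within a day than between days. Total counts were 70038 and 205038 in control D11 libraries, against 80349, 232377 and 413858 in control D4 libraries, and 123093 to 798622 in treated libraries. TRB counts were 32534 and 77777 in control D11 libraries, against 34553, 94814 and 186652 in control D4 libraries. The lowest listed value is 3, and of the values from 3 to 20 in untreated libraries 27.0 to 39.2% were exactly 20, so molecules were also estimated as counts divided by 20 and rounded up. By that estimate the shallowest control library held 1749 TRB molecules. In bulk RNA, fewer T cells of a clone and less receptor RNA per cell cannot be told apart.

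The clonotypes that carried the largest shares are given by V segment, J segment and CDR3 length, with the largest of each library first. In D11 replicate 1 the largest TRB clonotype joined TRBV16 to TRBJ2-2 with 15 residues and made up 17.6% of TRB counts (95% exact binomial interval 17.2 to 18.0%). The next joined TRBV12-2 to TRBJ2-7, also with 15 residues, at 6.64%. After it, TRBV16 with TRBJ1-1 and 14 residues stood at 4.49%. In D11 replicate 2 the largest joined TRBV2 to TRBJ2-1 with 17 residues at 14.5% (14.3 to 14.8%), followed by TRBV5 with TRBJ1-3 and 15 residues at 8.82%. After these, TRBV16 with TRBJ2-7 and 14 residues stood at 7.40%. Intervals treat each count as a separate draw. Several reads can come from the same molecule, so they are too narrow even for counting error. By estimated molecules the largest TRB clonotype held 16.4% in D11 replicate 1 and 13.3% in D11 replicate 2, below both intervals.

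The largest TRB clonotype of each D4 library had a shorter loop. The 3 largest in D4 replicate 1 were TRBV15 with TRBJ1-5 (13 residues, 10.2%), TRBV12-2 with TRBJ2-4 (12 residues, 9.25%) and TRBV12-2 with TRBJ2-3 and 16 residues (5.58%). The 3 largest in D4 replicate 2 were TRBV16 with TRBJ2-5 (13 residues, 25.0%), TRBV3 with TRBJ1-4 (14 residues, 9.09%) and TRBV3 with TRBJ2-3 (14 residues, 7.74%). In D4 replicate 3 a single clonotype, TRBV12-1 with TRBJ2-7 (12 residues), held 30.8% of TRB counts (30.6 to 31.0%). It was followed by TRBV16 with TRBJ2-3 and 15 residues at 5.02% and by TRBV1 with TRBJ2-3 (13 residues) at 4.34%. Thus the largest TRB clonotype had 15 or 17 residues in the D11 libraries, against 12 or 13 in the D4 libraries.

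In the alpha chain the largest clonotype of D11 replicate 1 was TRAV15N-1 with TRAJ50 and 16 residues at 6.11% of TRA counts, followed by TRAV7-5 with TRAJ40 (13 residues, 6.03%) and TRAV12N-3 with TRAJ13 (14 residues, 5.88%). The 3 largest in D11 replicate 2 were TRAV6N-6 with TRAJ2 and 15 residues (13%), TRAV16D/DV11V16N with TRAJ26 (13 residues, 12.5%) and TRAV13-2V13N-2 with TRAJ21 (12 residues, 7.92%). Names such as TRAV16D/DV11V16N are joint names of related V segments in the deposited table, so their reads cannot be split between the copies. The D4 leaders were TRAV13N-1 with TRAJ9 (14 residues, 7.48%) in replicate 1, TRAV7D-2 with TRAJ34 (13 residues, 13.6%) in replicate 2 and TRAV13D-1 with TRAJ5 and 15 residues (18.8%) in replicate 3. Behind them at D4 were TRAV7-5 with TRAJ39 (13 residues, 5.72%) and TRAV14-2V14N-2 with TRAJ5 and 15 residues (4.45%) in replicate 1. In replicate 2 these places went to TRAV8N-2 with TRAJ23 (14 residues, 9.75%) and TRAV6N-6 with TRAJ22 (12 residues, 8.95%). In replicate 3 they went to TRAV8-1V8D-1 with TRAJ33 (13 residues, 15.1%) and the same V name with TRAJ35 (13 residues, 5.56%). Which alpha chain was paired with which beta chain cannot be read from bulk RNA.

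**Figure D1:**
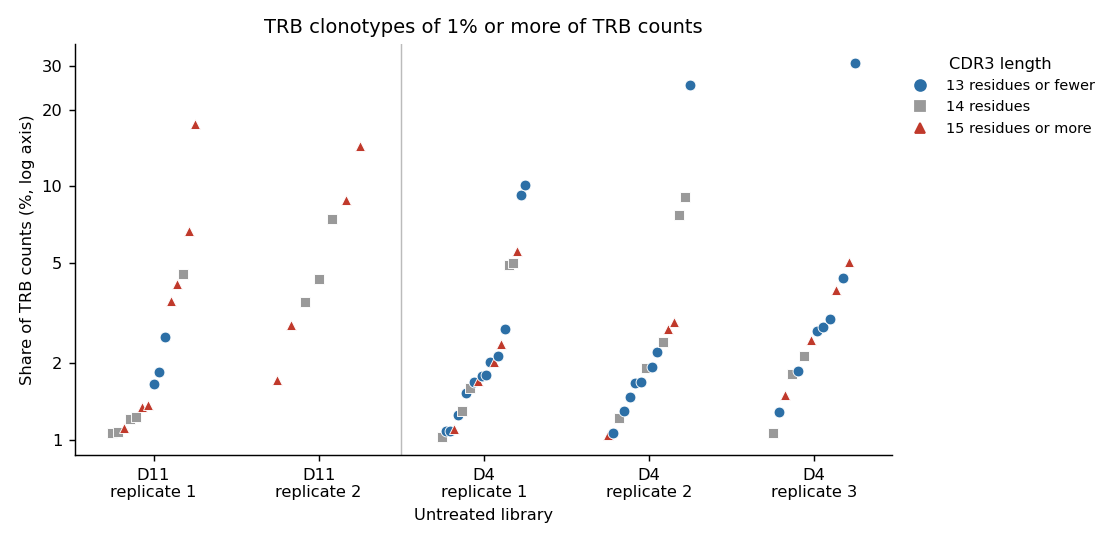
Every TRB clonotype of 1% or more of TRB counts, 1 point each, by untreated library (D11 left of the line, D4 right), with its share on a log axis and its CDR3 length by colour and shape. The largest clonotype is a red triangle (15 residues or more) in both D11 libraries and a blue circle (13 or fewer) in all 3 D4 libraries.

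Untreated repertoires were concentrated at both days. A clonotype of 1% or more of its chain's counts is called large here. Large TRB clonotypes numbered 15 and 7 in the D11 libraries, against 22, 16 and 14 in the D4 libraries, and they held 50.8% and 43.1% of TRB counts at D11, against 63.1%, 65.5% and 64.7% at D4. The 10 largest TRB clonotypes together held 45.1% and 45.7% at D11, against 46.2%, 57.7% and 59.0% at D4. The D11 libraries thus lay below all D4 libraries, although the gap to D4 replicate 1 was about 1 percentage point or less. The mean difference was -8.89 percentage points (exact two-sided permutation test, p = 0.2, adjusted p = 0.727). With 2 against 3 libraries there are 10 arrangements and the smallest p is 0.1, so no D11 against D4 measure could pass 0.05 on its own. Adjusted p-values cover the 20 repertoire measures (10 for each chain).

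Alpha was similar in kind. Large TRA clonotypes numbered 13 and 12 at D11, against 21, 17 and 15 at D4, with no overlap (difference -5.17, exact permutation p = 0.2, adjusted p = 0.727). The 10 largest TRA clonotypes held 39.5% and 47.8% at D11, against 39.5%, 61.2% and 60.4% at D4, where the groups overlapped. Clonality, which is 0 when all clonotypes have equal shares and 1 when a single clonotype holds all counts, was taken after thinning each library to the shallowest one. TRB clonality was 0.229 and 0.265 at D11, against 0.221, 0.350 and 0.402 at D4 (exact permutation p = 0.4, adjusted p = 0.727). TRA clonality was 0.190 and 0.294 at D11, against 0.201, 0.351 and 0.396 at D4, again overlapping. In both chains and on both days the library with fewer counts had the lower clonality.

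The number of different receptors overlapped between the days. At D11 298 and 749 TRB clonotypes were detected, against 214, 416 and 696 at D4. At equal counts the numbers were 298 and 739 at D11, against 214, 408 and 644 at D4 (exact permutation p = 0.7, adjusted p = 0.824). TRA clonotypes numbered 332 and 815 at D11, against 265, 421 and 684 at D4. For none of these measures did the D11 minus D4 difference in untreated libraries differ from that in treated libraries past an adjusted p of 0.05 (lowest 0.767 among clonotype number, clonality and large-clone measures). That test permuted untreated and treated labels within each day over all arrangements. It pooled drugs whose changes could run in opposite directions. For the 10 largest TRB clonotypes the change was -14.3 percentage points under trametinib, 4.46 under BGB-283 and 13.8 under the combination.

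The mean beta CDR3 was longer in both untreated D11 libraries than in any untreated D4 library, and of the 20 measures this was the only one whose untreated change differed from the treated change past the threshold. Counting each clonotype once, the mean TRB CDR3 length was 14.16 and 14.12 residues in control D11 libraries, against 13.77, 13.95 and 13.82 residues in control D4 libraries. Both D11 libraries lay above all D4 libraries. The difference was 0.296 residues (14.14 ± 0.028 at D11, SD, n = 2, against 13.85 ± 0.096 at D4, SD, n = 3), with the smallest p that 2 against 3 libraries allow (exact two-sided permutation p = 0.1, adjusted p = 0.667). The 2 shallowest libraries differed in the same way, with 14.16 residues in D11 replicate 1 and 13.77 in D4 replicate 1 at 32534 and 34553 TRB counts.

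In treated libraries the means of the days lay close together. The mean TRB CDR3 length was 13.96 ± 0.088 residues at D11 and 13.97 ± 0.045 at D4 (SD, n = 9 each). The D11 minus D4 differences were 0.052 residues under trametinib, -0.005 under BGB-283 and -0.051 under the combination. The untreated change exceeded the treated change by 0.297 residues (exact two-sided permutation test within days, p = 0.000992, adjusted p = 0.0198 over 20 measures). That test takes untreated and treated libraries as exchangeable. Untreated means rested on 214 to 749 TRB clonotypes per library, against 436 to 5172 in treated libraries. Means over fewer clonotypes vary more, which can make such a p too small, and this was not tested. In level, the 9 treated libraries of D11 ran from 13.80 to 14.14 residues, and trametinib D11 replicate 2, at 14.14, lay between both untreated D11 libraries. At D4 the treated libraries ran from 13.90 to 14.05, so that the untreated D4 libraries lay partly below them. This call was lost when entries under 20 counts were set to 0 (0.292, adjusted p = 0.0727), without control D4 replicate 1 (0.256, adjusted p = 0.0793), without control D4 replicate 3 (0.285, adjusted p = 0.0793) and without control D11 replicate 1 (0.277, adjusted p = 0.191).

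**Figure D2:**
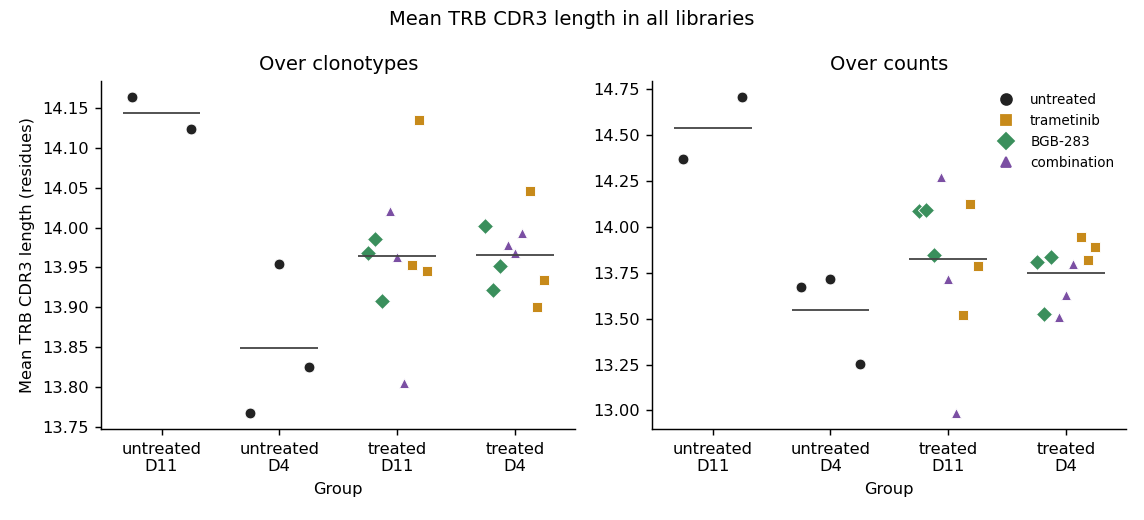
Mean TRB CDR3 length in residues for each of the 23 libraries, with each clonotype counted once (left) and weighted by counts (right), by group; lines are group means. The axes do not start at 0. Untreated D11 libraries sit at 14.12 and 14.16 on the left, above the untreated D4 libraries at 13.77 to 13.95, while both treated groups centre near 13.97.

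Weighted by counts, so that large clones dominate, the gap was wider. The mean was 14.37 and 14.71 residues at D11, against 13.67, 13.72 and 13.25 at D4, again with no overlap (difference 0.992, exact permutation p = 0.1, adjusted p = 0.667). The untreated change exceeded the treated change by 0.918 residues (exact permutation p = 0.0108), which did not pass adjustment (adjusted p = 0.108). With 1 library left out at a time this difference ran from 0.749 to 1.09 residues. It passed only without combination D11 replicate 3 (exact permutation adjusted p = 0.0263). With the largest clonotype of each chain in each library left out, the count-weighted gap between D11 and D4 was 0.440 residues, less than the 0.992 with it. The largest clonotypes named above therefore carried much of the count-weighted gap, while the difference in the mean over clonotypes was 0.290 without them (an alternative chosen after seeing the data).

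The step appeared in clonotypes of every size. Rare TRB clonotypes, of 3 to 20 counts, averaged 14.10 and 14.12 residues at D11, against 13.65, 13.81 and 13.82 at D4. Middle ones averaged 14.19 and 14.11 at D11, against 13.87, 14.05 and 13.84 at D4. Large ones averaged 14.33 and 15 at D11, against 13.64, 13.69 and 13.57 at D4. In each class both D11 libraries lay above all D4 libraries.

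The mean length of large minus that of rare clonotypes also lay higher in both D11 libraries than in any D4 library. Large minus rare came to 0.234 and 0.883 residues at D11, against -0.017, -0.124 and -0.247 residues at D4 (difference 0.688, exact permutation p = 0.1, adjusted p = 0.667). Only in D11 replicate 2 was this gap wider than the standard error of the large class over its clonotypes. That standard error was 0.287 and 0.436 residues at D11, against 0.251, 0.254 and 0.374 at D4. Only 15 and 7 large clonotypes enter the D11 values, and without the largest clonotype of each library the difference was 0.347 (exact permutation p = 0.4). Without control D11 replicate 2 it was 0.364, and the untreated minus treated change was 0.396. The change did not differ from that of treated libraries (0.720, exact permutation p = 0.112, adjusted p = 0.745). Large clonotypes were counted once in each library, so the TRBV16 TRBJ2-5 clonotype of 13 residues counts in both D4 replicates 2 and 3 here and below. Of the large TRB clonotypes, 7 of 15 and 4 of 7 in the D11 libraries had 15 residues or more, against 5 of 22, 3 of 16 and 4 of 14 at D4. At the short end, 3 of 15 and 0 of 7 at D11 had 13 residues or fewer, against 12 of 22, 8 of 16 and 7 of 14 at D4. Clonotypes of all sizes also ran longer at D11, and their shares by length class are given below.

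**Figure D3:**
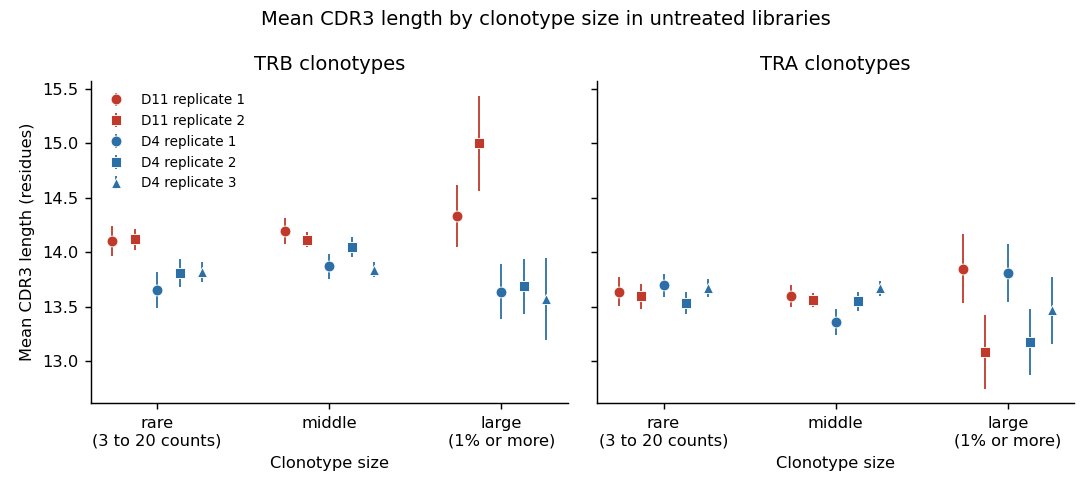
Mean CDR3 length of rare, middle and large clonotypes in each untreated library, for TRB (left) and TRA (right); bars are the standard error over the clonotypes of that library, which are not replicates, and the axis does not start at 0. In TRB both D11 libraries (red) lie above the D4 libraries (blue) in every size class; in TRA they intermingle.

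By length class, D11 had fewer loops of 13 residues and more of 15 and of 16 or more. TRB clonotypes of 13 residues were 18.1% and 19.2% at D11, against 26.2%, 24.8% and 23.7% at D4. Those of 16 residues or more were 16.8% and 16.8% at D11, against 10.3%, 13.5% and 13.2% at D4. Clonotypes of 15 residues were 24.2% and 21.9% at D11, against 16.4%, 21.6% and 18.5% at D4. The classes of 12 residues or fewer and of 14 residues overlapped. For comparison, treated libraries held 17.9 to 24.2% clonotypes of 13 residues at D11 and 17.8 to 23.3% at D4. They held 12.7 to 15.7% of 16 residues or more at D11 and 12.2 to 14.9% at D4, so both untreated D11 libraries lay above the treated D11 range in that class, and untreated D4 replicate 1 lay below the treated D4 range. At 13 residues all 3 untreated D4 libraries lay above the treated D4 range, while both untreated D11 libraries lay inside the treated D11 range.

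**Figure D4:**
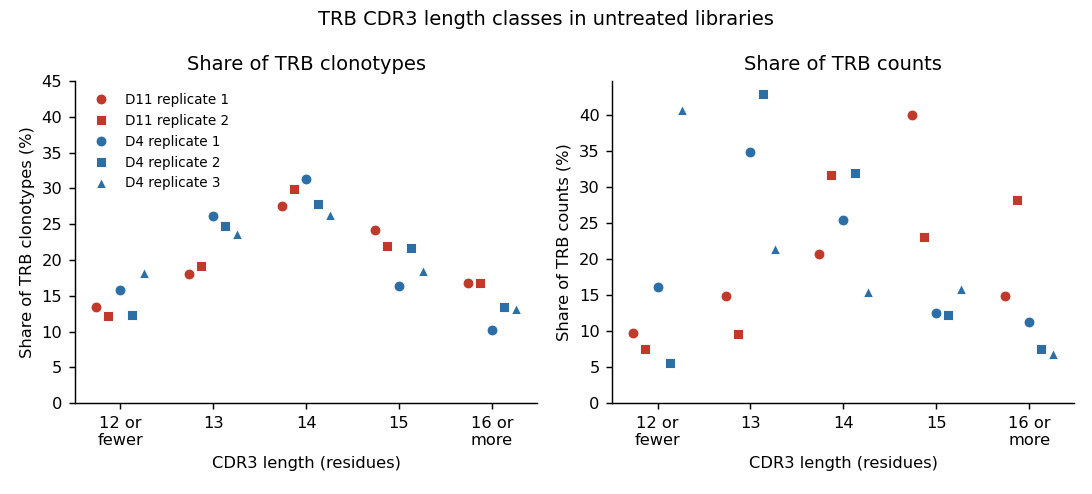
Share of TRB clonotypes (left) and of TRB counts (right) by CDR3 length class in each untreated library, with D11 in red and D4 in blue. At 13 residues D11 lies below D4 in both panels, and at 16 residues or more it lies above.

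Most segments had a longer mean loop at D11, but most TRBV segments overlapped between the days. Among TRBV segments with at least 5 clonotypes in every untreated library, 9 of 13 had a longer mean at D11, with a median difference of 0.189 residues. Only 2 of these 13 did not overlap. They were TRBV12-1, with 13.60 and 14.14 residues at D11, against 13.35, 13.55 and 13.11 at D4, and TRBV3. TRBV3 had 14.40 and 14.36 at D11, against 14.20, 14.18 and 14.19 at D4. Among TRBJ segments 10 of 12 had a longer mean at D11, with a median difference of 0.220 residues. In 6 of these the libraries did not overlap, led by TRBJ2-4 with 14.32 and 14.62 residues at D11, against 13.18, 13.97 and 13.66 at D4. TRBJ2-2 had 14.89 and 14.88 at D11, against 14.33, 14.13 and 14.61 at D4. TRBJ1-6 ran the other way without overlap, with 14.27 and 14.54 at D11, against 14.67, 15.11 and 14.92 at D4. Since J segments add loops of different length, these values compare the days within a J segment.

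Alpha CDR3 length did not separate the days. Its mean over clonotypes was 13.62 and 13.57 residues at D11, against 13.53, 13.53 and 13.66 at D4 (difference 0.020, exact permutation p = 0.8, adjusted p = 0.889). Weighted by counts it was 13.71 and 13.50 at D11, against 13.62, 13.31 and 13.74 at D4. Large minus rare gave 0.209 and -0.511 residues at D11, against 0.115, -0.355 and -0.204 at D4, so the size of a clone and the length of its alpha loop had no common order. The untreated and treated changes in alpha length over clonotypes differed by 0.031 residues (exact permutation p = 0.628, adjusted p = 0.767).

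Other features of the beta loop were described without a test. Loops starting with CASS, the common start encoded by many TRBV segments, were 77.5% and 80.0% of clonotypes at D11, against 75.7%, 75.2% and 74.6% at D4. By counts CASS loops were 86.6% and 87.5% at D11, against 85.1%, 89.2% and 86.5% at D4. A pair of adjacent glycines, which the D segments can encode, was found in 23.2% and 24.6% of TRB clonotypes at D11, against 18.7%, 17.8% and 23.3% at D4. By counts, the glycine pair stood at 23.3% and 29.1% at D11, against 9.02%, 7.53% and 16.8% at D4. The groups overlapped in CASS loops by counts and in the glycine pair by clonotypes, and did not overlap in CASS loops by clonotypes and in the glycine pair by counts.

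J segment use in beta was led by TRBJ2-7, TRBJ2-5, TRBJ2-1, TRBJ2-3 and TRBJ1-1. Of 12 TRBJ segments tested, 2 rose at D11 and none fell (16.7% called at an adjusted p of 0.05) when each library was scaled by its TRB total. The split depended on the scaling. Under TMM, which lowered the log2 folds of the 12 segments by a median of 1.06, TRBJ2-2 rose while TRBJ2-5 and TRBJ1-4 fell, and with DESeq2 TRBJ2-2 and TRBJ1-3 rose while TRBJ2-5 fell. Both were TRBJ segments of low share at D4. TRBJ2-2 made up 21.4% and 3.45% of TRB counts at D11, against 1.02%, 1.64% and 0.949% at D4. Its log2 fold was 3.36 ± 0.867 (SE, edgeR quasi-likelihood test, adjusted p = 0.00255), and in D11 replicate 1 the single clonotype named first above made most of it. Without its largest clonotype in each library TRBJ2-2 held 3.78% and 3.07% at D11, against 0.472%, 1.21% and 0.856% at D4.

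TRBJ1-3 made up 2.28% and 11.4% of TRB counts at D11, against 1.02%, 1.25% and 0.986% at D4 (log2 fold 2.65 ± 0.873, SE, edgeR adjusted p = 0.0192). In D11 replicate 2 most of it was the TRBV5 clonotype of 8.82%. Without the largest TRBJ1-3 clonotype of each library the shares were 1.63% and 2.59% at D11, against 0.738%, 0.971% and 0.615% at D4. By number of clonotypes the same order held with smaller steps. TRBJ2-2 was 6.04% and 5.74% of clonotypes at D11, against 2.80%, 3.61% and 4.45% at D4, and TRBJ1-3 was 5.03% and 5.34% at D11, against 3.74%, 3.61% and 3.59% at D4. Counting each clonotype once ended both calls (TRBJ2-2 log2 fold 0.57, edgeR adjusted p = 0.184; TRBJ1-3 log2 fold 0.54, edgeR adjusted p = 0.211). The TRBJ2-2 call was also lost without control D11 replicate 1 (log2 fold 1.52, edgeR adjusted p = 0.381) and with the largest clonotype of each library left out (1.46, edgeR adjusted p = 0.153). TRBJ1-3 was lost without control D4 replicate 2 (2.77, edgeR adjusted p = 0.0509) and under TMM scaling (1.42, edgeR adjusted p = 0.119). It was also lost with the 5 untreated libraries alone (2.65, edgeR adjusted p = 0.184). With the replicate number as a block it was lost too (2.38, edgeR adjusted p = 0.0660). Without control D11 replicate 2, which holds the TRBV5 clonotype of 8.82%, D11 replicate 1 was alone in its group. The TRBJ1-3 log2 fold then fell from 2.65 to 1.07.

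TRBJ2-5 ran the other way. It was 9.17% and 5.57% of TRB counts at D11, against 10.3%, 37.1% and 18.7% at D4, and the TRBV16 TRBJ2-5 clonotype made 25.0 of the 37.1% in D4 replicate 2. The D11 libraries lay below all D4 libraries, and TRBJ2-5 was thus among the 4 of 12 TRBJ segments (33.3%) without overlap. The segment did not pass (log2 fold -1.58 ± 0.652, SE, edgeR adjusted p = 0.0706). TRBJ2-5 passed under TMM (log2 fold -2.72, edgeR adjusted p = 0.0198), with DESeq2 (-1.90, adjusted p = 0.00448), without control D4 replicate 1 (-1.92, edgeR adjusted p = 0.0230) and without control D4 replicate 3 (-1.68, edgeR adjusted p = 0.0476). Without control D4 replicate 2 its log2 fold was -0.98 (edgeR adjusted p = 0.346). By clonotypes it was 10.4% and 8.95% at D11, against 12.1%, 16.3% and 15.4% at D4, and with each clonotype counted once it fell by 0.69 on the log2 scale (edgeR adjusted p = 0.00656). TRBJ2-3 held 9.24% and 5.36% of counts at D11, against 14%, 16.7% and 13.1% at D4 (edgeR adjusted p = 0.348). TRBJ2-1 held 12.6% and 22.0% at D11, against 12.8%, 9.76% and 3.34% at D4, and TRBJ1-4 held 2.68% and 6.46% at D11, against 8.66%, 14.6% and 4.78% at D4, both overlapping. TRBJ1-4 passed under TMM alone (log2 fold -2.12, edgeR adjusted p = 0.0470). TRBJ2-7 and TRBJ1-1 overlapped too, with 19.5% and 18.4% at D11, against 10.8%, 6.32% and 40.1% at D4, and with 8.11% and 11% at D11, against 5.77%, 2.58% and 11.3% at D4. The J1 cluster as a whole held 23.1% and 39.2% of TRB counts at D11, against 37.0%, 24% and 20.3% at D4.

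Set against the treated libraries, TRBJ2-2 was the only TRBJ segment whose untreated change differed from the treated one (1 of 12, 8.33% called; log2 difference 3.25 ± 0.954, SE, edgeR adjusted p = 0.0124). Treated libraries held a median of 2.68% TRBJ2-2 at D11 (1.55 to 13.5%) and 3.39% at D4 (1.19 to 7.55%). Untreated D4 replicates 1 and 3, at 1.02% and 0.949%, lay below the treated D4 range, and replicate 2 lay inside it. That call was lost under TMM scaling, with each clonotype counted once and with the largest clonotypes left out, where the lowest edgeR adjusted p of the 12 was 0.0888, 0.0582 and 0.0890. It was also lost without control D11 replicate 1 (0.116) and without control D4 replicate 3 (0.0696).

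**Figure D5:**
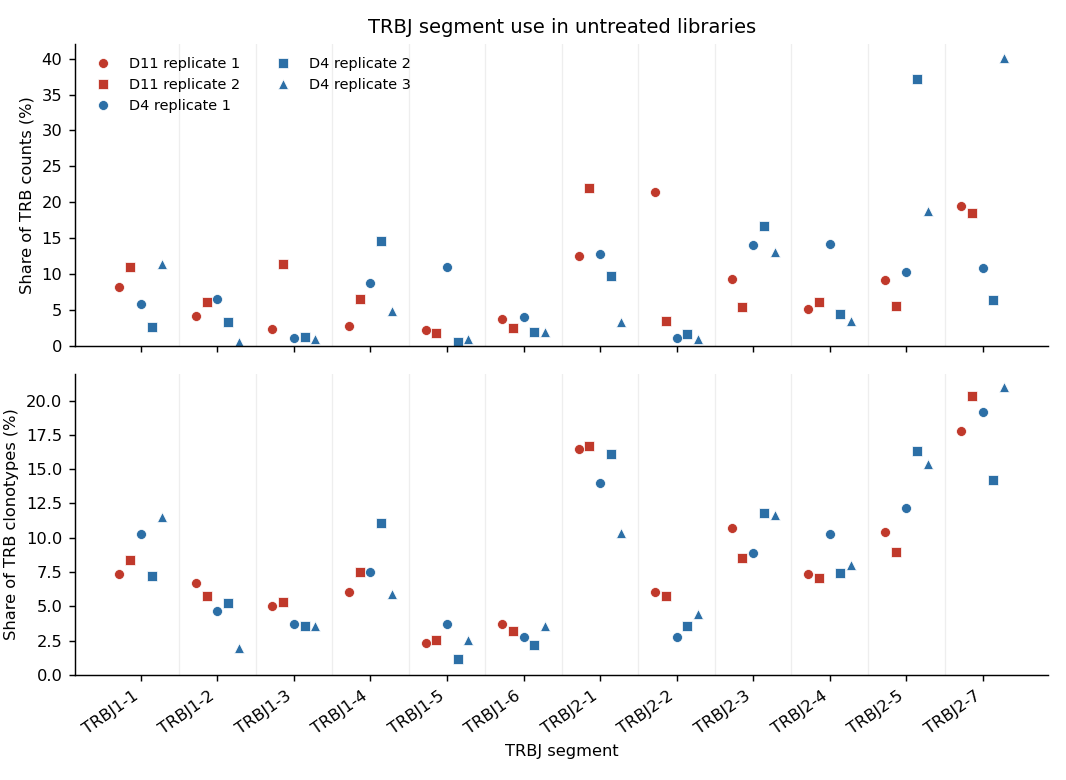
Share of TRB counts (top) and of TRB clonotypes (bottom) for each of the 12 TRBJ segments in the 5 untreated libraries, D11 in red left of D4 in blue. TRBJ2-2 and TRBJ1-3 lie higher and TRBJ2-5 lower at D11 in both panels, with smaller steps by clonotypes.

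V segment use in beta varied widely from library to library, with a biological coefficient of variation of 0.935, against 0.576 for TRBJ. No TRBV segment passed (0 of 24, 0% called, and 0% called against the treated change; 3 had an unadjusted p under 0.05 by edgeR, and DESeq2 called 4). The median log2 fold of the 24 was -0.08. The segment with the highest mean share, TRBV16, held 33.1% and 13.7% of counts at D11, against 8.97%, 35.9% and 19.9% at D4. It also held the most large clonotypes, 5 of 22 at D11 and 11 of 52 at D4. TRBV3 held 11% and 6.02% at D11, against 7.52%, 24.9% and 8.51% at D4. TRBV2 held 4.80% and 16.9% at D11, against 5.37%, 5.97% and 1.12% at D4. TRBV12-1 held 2.61% and 5.26% at D11, against 5.70%, 1.96% and 33.4% at D4, and TRBV12-2 held 10.6% and 4.2% at D11, against 21.9%, 5.88% and 2.19% at D4. These segments overlapped between the days, and the high values (33.1, 35.9 and 33.4%) were in libraries whose largest clonotype used that segment.

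Of the TRBV segments with the lowest p, TRBV31 and TRBV26 did not overlap, as was the case for 6 of the 24 TRBV segments (25%). TRBV31 was listed at 0 in D11 replicate 1 and held 0.10% in D11 replicate 2, against 3.08%, 0.291% and 0.714% at D4 (log2 fold -4.73 ± 1.60, SE, edgeR adjusted p = 0.112). TRBV26 held 1.10% and 1.5% at D11, against 0.663%, 0.0717% and 0.185% at D4 (2.09 ± 0.896, SE, edgeR adjusted p = 0.217). TRBV24 (0.437%, 2 clonotypes) and TRBV21 (0.108%, 1 clonotype) were listed above 0 in D11 replicate 2 alone. TRBV15 held 0.787% and 2.58% at D11, against 12.4%, 0.826% and 3.54% at D4. With each clonotype counted once, TRBV17 passed. It is outside the rule for naming segments and was chosen after its values were seen. TRBV17 was 9.40% and 5.87% of clonotypes at D11, against 3.74%, 4.09% and 3.59% at D4 (log2 fold 0.91 ± 0.276, SE, edgeR adjusted p = 0.0476).

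V segment families with known roles were summed by library. The Vbeta8 family (TRBV13-1, TRBV13-2 and TRBV13-3), the most common partner of the invariant alpha chain of natural killer T (iNKT) cells, held 4.83% and 6.82% of TRB counts at D11, against 9.57%, 9.01% and 7.15% at D4. The D11 libraries lay below the D4 ones by counts. By clonotypes they overlapped, with 5.70% and 8.81% at D11, against 9.81%, 11.5% and 7.33% at D4. Treated libraries had medians by counts of 8.75% at D11 and 9.55% at D4. Of its members, TRBV13-3 did not overlap, with 1.32% and 1.52% at D11, against 2.49%, 3.10% and 2.22% at D4, while TRBV13-1 and TRBV13-2 overlapped. With TRBV29 and TRBV1 added, iNKT partner segments held 11.9% and 16% at D11, against 11.9%, 14.7% and 15% at D4. Segments whose T cells can be deleted by superantigens of endogenous mouse mammary tumour viruses in some strains (TRBV12-1, TRBV12-2, TRBV15, TRBV16 and TRBV26) held 48.1% and 27.2% at D11, against 49.7%, 44.6% and 59.2% at D4. The D11 and D4 libraries overlapped.

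The invariant alpha chains of innate-like T cells were scarce. The iNKT alpha chain (TRAV11 family with TRAJ18) was listed at 0 in D11 replicate 1 and held 0.304% of TRA counts (387 counts) in D11 replicate 2. At D4 it was listed at 0 in replicates 1 and 3 and held 0.209% (287 counts) in replicate 2. In treated libraries it was above 0 in 9 of 9 at D11 (median 0.652%) and 9 of 9 at D4 (median 0.317%). The MAIT cell alpha chain (mucosal-associated invariant T), made of TRAV1 and TRAJ33, was listed at 0 in all 5 untreated libraries and above 0 in 2 of 18 treated ones.

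Alpha segment use gave 1 call. Of 118 TRAV names tested, TRAV16D/DV11V16N rose at D11 (0.847% called). It held 2.91% and 16.1% of TRA counts at D11, against 0.985%, 0.482% and 0.325% at D4 (log2 fold 3.99 ± 0.951, SE, edgeR adjusted p = 0.0356). The clonotype with TRAJ26 made 12.5% of the 16.1% in D11 replicate 2. Without the largest clonotype of the name in each library it held 2.14% and 3.56% at D11, against 0.633%, 0.342% and 0.260% at D4, and by clonotypes 3.61% and 4.17% at D11, against 1.51%, 1.43% and 1.61% at D4. The untreated change also differed from the treated one (log2 difference 4.53 ± 1.05, SE, edgeR adjusted p = 0.0268; 1 of 118, 0.847% called). Treated libraries held a median of 2.38% at D11 and 2.71% at D4.

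The TRAV16D/DV11V16N call depended on several choices. With the largest clonotype of each library left out the call stayed (log2 fold 4.0, edgeR adjusted p = 0.0195). That setting took no clonotype of this name from any untreated library. In D11 replicate 2 the TRAJ26 clonotype ranked behind TRAV6N-6 with TRAJ2 and was kept. The setting therefore cannot show whether the call outlasts the TRAJ26 clonotype. The call was lost with no filter on low counts (3.99, edgeR adjusted p = 0.0582), where TRAV13N-3 was called instead (edgeR adjusted p = 0.0364). It was also lost with each clonotype counted once (1.37, edgeR adjusted p = 0.0596) and under TMM scaling (3.73, edgeR adjusted p = 0.107). The 5 untreated libraries alone (3.99, edgeR adjusted p = 0.313) and the replicate number as a block (3.74, edgeR adjusted p = 0.111) lost it too. So did leaving out control D4 replicate 2 (3.86, edgeR adjusted p = 0.173) or control D4 replicate 3 (3.69, edgeR adjusted p = 0.114). Without control D11 replicate 2, which holds the TRAJ26 clonotype, D11 replicate 1 was alone in its group. The log2 fold then fell from 3.99 to 2.28. The most used TRAV names were TRAV7D-2, TRAV13D-1, TRAV6N-6, TRAV8-1V8D-1 and TRAV14-2V14N-2. TRAV7D-2 held 8.96% and 6.85% at D11, against 10.3%, 19.9% and 6.37% at D4, and TRAV6N-6 held 8.30% and 13.9% at D11, against 2.73%, 9.39% and 0.0709% at D4. TRAV13D-1 held 1.18% and 2.28% at D11, against 3.04%, 1.75% and 20.2% at D4, TRAV8-1V8D-1 2.77% and 3.20% at D11, against 4.85%, 0.364% and 21.8% at D4, and TRAV14-2V14N-2 7.67% and 3.07% at D11, against 12.1%, 3.29% and 2.18% at D4. All 5 overlapped.

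Among the TRAV names closest to a call, TRAV7N-5 held 0.0693% and 0.357% at D11, against 3.66%, 11.2% and 1.24% at D4 (log2 fold -4.65 ± 1.52, SE, edgeR adjusted p = 0.0893). TRAV14D-2 and TRAV6-2 were listed at 0 in both D11 libraries, against 0.00655%, 0.0254% and 0.207% for TRAV14D-2 at D4 and 0.552%, 0.0654% and 0.165% for TRAV6-2 at D4 (edgeR adjusted p = 0.0825 and 0.151). TRAV13N-3 was listed at 0 in D11 replicate 1 and held 2.85% in D11 replicate 2, against 0%, 0% and 0.00132% at D4. TRAV13-2V13N-2 held 0.173% and 8.44% at D11, against 0.146%, 0.202% and 0.359% at D4. For this pair of names the high value was in D11 replicate 2 alone.

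No TRAJ segment passed (0 of 41, 0% called, and 0% against the treated change; 10 had an unadjusted p under 0.05 by edgeR, and DESeq2 called 5). TRAJ5, the segment with the highest mean share, held 0.997% and 2.11% at D11, against 15.4%, 5.81% and 20.8% at D4 (log2 fold -3.17 ± 1.54, SE, edgeR adjusted p = 0.184). By clonotypes it was 0.904% and 1.23% at D11, against 7.55%, 5.70% and 6.29% at D4, and of the large TRA clonotypes 1 of 25 at D11 used it, against 7 of 53 at D4. TRAJ18 held 1.82% and 0.971% at D11, against 0.0437%, 0.252% and 0.237% at D4, TRAJ56 2.00% and 0.903% at D11, against 0.0197%, 0.224% and 0.102% at D4 (edgeR adjusted p = 0.147 for both). TRAJ50 held 7.25% and 0.362% at D11, against 0%, 0.131% and 0.358% at D4. In these 4 segments the groups did not overlap, as in 15 of the 41 TRAJ segments. TRAJ34 was high in D4 replicate 2 alone (17.1%) and TRAJ35 in D4 replicate 3 alone (5.67%). TRAJ9, TRAJ26, TRAJ33 and TRAJ22, the other most used segments, overlapped.

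Untreated libraries shared few receptors. Of the 2346 TRB clonotypes 2321 (98.9%) were in a single untreated library, and of the 2467 TRA clonotypes 2427 (98.4%). On both days 9 TRB clonotypes were found (0.861% of those at D11, 0.687% of those at D4) and 26 TRA clonotypes (2.28% at D11, 1.92% at D4). The TRBV16 TRBJ1-1 clonotype of 14 residues was the most abundant of the 9, at 4.49% in D11 replicate 1, against 0.416% and 0.0359% in D4 replicates 2 and 3. The next were TRBV19 with TRBJ2-5 (13 residues), at 0.507% in D11 replicate 1, against 1.08% in D4 replicate 1, and TRBV19 with TRBJ2-4 (13 residues), at 0.332% in D11 replicate 1, against 0.242% in D4 replicate 3. TRBV1 with TRBJ2-7 (14 residues) held 0.126% in D11 replicate 2, against 0.349% in D4 replicate 3, and a TRBV3 TRBJ2-3 clonotype of 16 residues held 0.051% in D11 replicate 2, against 0.151% in D4 replicate 2. The TRBV19 TRBJ2-4 clonotype was also in 11 treated libraries and the TRBV1 one in 7.

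Shared alpha clonotypes had larger shares. TRAV13D-1 with TRAJ5 and 15 residues held 0.533% in D11 replicate 2, against 18.8% in D4 replicate 3 and 4 counts in D4 replicate 2, and was in 13 treated libraries. TRAV7N-5 with TRAJ9 (12 residues) held 0.0110% (14 counts) in D11 replicate 2, against 1.65% and 8.49% in D4 replicates 1 and 2, and was in 11 treated libraries. TRAV14-2V14N-2 with TRAJ12 (14 residues) held 3.64% in D11 replicate 1, against 0.131% in D4 replicate 2. TRAV14D-1 with TRAJ30 (13 residues) held 0.185% in D11 replicate 2, against 1.45% in D4 replicate 2. TRAV7D-2 with TRAJ9 (13 residues) held 0.203% in D11 replicate 2, against 0.718% and 0.367% in D4 replicates 1 and 3.

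The pair of libraries with most TRB clonotypes in common was D4 replicates 2 and 3, with 12 (2.88% of replicate 2, 1.72% of replicate 3). They included the TRBV16 TRBJ2-5 clonotype of 13 residues, at 25.0% and 1.87%. All other untreated pairs shared 1 to 3 TRB clonotypes. Large TRB clonotypes were also listed in treated libraries in 2 of 22 cases at D11, against 17 of 52 at D4, and of all TRB clonotypes 8.39% and 8.41% at D11 were also in treated libraries, against 13.6%, 12.3% and 10.2% at D4. For TRA the shares were 19.9% and 18.8% at D11, against 21.5%, 20.9% and 19.2% at D4.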

How the data were processed

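TCR transcripts were read in 5 untreated and 18 treated libraries, using a QIAseq Immune Repertoire kit from QIAGEN, per the labels' protocols. The authors deposited 1 table of unscaled whole-number counts, with a row for each receptor (chain, V, J, CDR3). GRCh38, a human assembly, is named in the submitters' processing notes; software and filters used upstream: not given in the sources used here. Gamma and delta chains were not analysed here. Of 64710 entries, 274 with an unresolved residue (0.0227% of counts) were left out. The lowest value above 0 is 3.

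The members, measures and lists were chosen with earlier results of these data known. Clonality used 100 seeded thinning draws to 32534 TRB or 37504 TRA counts. Equal-count numbers were the clonotypes expected at those counts by an exact formula, without draws. Days were compared by exact two-sided permutation of libraries, and untreated with treated changes by exact permutation within days, with Benjamini-Hochberg adjustment over 20 measures each (Python 3.11.15, scipy 1.17.1). Segments were tested with edgeR 4.0.16 (quasi-likelihood, all 23 libraries in 8 groups, chain total as library size, filterByExpr), with DESeq2 1.42.0 as an alternative. SEs were derived as log2 fold divided by the root of the F statistic. The scripts were tested on simulated data. Segments were named where they passed, where they had the 3 smallest p in a direction or the 5 highest shares. Clonotypes named are the 3 largest of each chain and library and the 5 most abundant on both days. Replicate numbers, of which 2 are shared, were not taken to pair libraries. Alternatives were estimated molecules, entries under 20 counts set to 0, clonotypes by CDR3 alone, complete CDR3 only, TMM, no filter and each clonotype counted once. Others were TRAV names summed to families, a replicate block, the 5 untreated libraries alone and each library left out. Leaving out the largest clonotypes was an alternative chosen after seeing the data.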

Additional observations from a re-analysis of the deposited data

Results flagged for a closer look

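Beta CDR3 length over clonotypes was marked because its D11 minus D4 difference in untreated libraries exceeded that in treated libraries by 0.297 residues (exact permutation p = 0.000992, adjusted p = 0.0198). Both untreated D11 libraries lay above all 3 untreated D4 libraries. TRBJ2-2 was marked for the same kind of difference, with a log2 value of 3.25 (edgeR adjusted p = 0.0124). In D11 replicate 1 a single clonotype held 17.6 of its 21.4%. TRAV16D/DV11V16N was marked with a log2 difference of 4.53 (edgeR adjusted p = 0.0268), and 1 clonotype held 12.5 of its 16.1% in D11 replicate 2. The groups of 2 and 3 untreated libraries are too small for a test of single outlying libraries.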

How the results depend on the processing

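Of the D11 against D4 measures, whose p could not reach the threshold, 116 of 120 values under other settings kept their direction, and 85 of 100 did so with 1 library left out. For the untreated minus treated change, 97 of 100 values kept direction and call under other settings, and 440 of 460 with 1 library left out. Named segments, for D11 against D4 alone, kept direction and call in 155 of 184 cases under other settings. With 1 library left out they did so in 102 of 120. Counts of segments called D11 against D4 stayed within 1.5 times in 20 of 33 and 9 of 20 cases. Leaving out the largest clonotype of each chain and library was chosen after seeing the data. With entries under 20 counts set to 0, the untreated minus treated change in TRB length over clonotypes was 0.292 residues and lost its call, TRA length over clonotypes turned to -0.0092 and its untreated minus treated change to -0.021, and TRA large minus rare turned to 0.23. That last difference was 0.082 with clonotypes defined by CDR3 alone. Without the largest clonotypes TRA length over counts turned to -0.052, the untreated minus treated change in TRA large minus rare to -0.056, and TRBV12-1 to a log2 fold of 0.14. The cause of these shifts was not tested.

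Calls of segments depended on the fit. DESeq2 called 4 TRBV (TRBV21, TRBV22, TRBV24 and TRBV31), 16 TRAV and 5 TRAJ segments (TRAJ6, TRAJ18, TRAJ35, TRAJ49 and TRAJ56; TRBV22, TRAJ6 and TRAJ49 were chosen after their values were seen), and against the treated change 4 TRBV, 15 TRAV and 1 TRAJ. Among untreated libraries TRBV21 and TRBV24 were listed in D11 replicate 2 alone and TRBV22 in D4 replicate 3 alone. Their DESeq2 log2 folds of 22.5, 24.5 and -19.9 thus rest on a group listed at 0. Counting each clonotype once gave 1 TRBV call, 1 TRBJ call and 0 TRAV calls, and against treated 1 TRBV, 0 TRBJ and 0 TRAV. TMM gave 3 TRBJ calls (TRBJ2-2 higher, TRBJ2-5 and TRBJ1-4 lower), as DESeq2 did with 2 higher and 1 lower. TMM gave 0 TRAV calls, and 0 TRBJ and 0 TRAV against treated. It moved log2 folds by medians of -0.17 (TRBV), -1.06 (TRBJ), -0.40 (TRAV) and -0.81 (TRAJ), and DESeq2 by -0.14, -0.22, -0.19 and -0.19. The 5 untreated libraries alone gave 1 TRBJ and 0 TRAV calls. Leaving out the largest clonotypes gave 1 TRBJ call and 0 against treated. No filter on low counts gave 1 TRAV call (TRAV13N-3 in place of TRAV16D/DV11V16N) and 2 against treated, and estimated molecules gave 3 TRAV calls. With the replicate number as a block, which the data do not show to pair libraries (correlations of same-numbered deviations from -0.12 to 0.19), there were 1 TRBJ and 0 TRAV calls and 0 and 0 against treated. In that block the TRB length difference was 0.284 residues over clonotypes and 0.845 over counts, and the TRBJ2-2 log2 fold was 3.17 (edgeR adjusted p = 0.0108).

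Between D11 and D4, leaving out 1 library at a time gave TRB clonotypes detected -0.409 to 0.921, TRB clonotypes at equal counts -0.362 to 0.948, TRA counts -1.59 to 0.175, TRA clonotypes detected -0.353 to 0.942 and TRA clonotypes at equal counts -0.285 to 0.965. The ranges went on with TRA CDR3 length over clonotypes -0.00873 to 0.0649, TRA CDR3 length over counts -0.0817 to 0.15, TRA CDR3 length large minus rare -0.363 to 0.357, TRBV calls 0 to 1 and TRBV24 0 to 12.4. Further ranges were TRBV21 0 to 10.4, TRBV12-1 -2.39 to 0.0386, TRBJ calls 1 to 3, TRAV calls 0 to 3 and TRAV13N-3 -3.44 to 14.6. The other ranges were TRAV13-2V13N-2 -0.445 to 5.16, TRAJ calls 0 to 1 and TRAJ34 -3.63 to 0.328. For the untreated minus treated change, leaving out 1 library at a time gave TRB counts -0.991 to 0.286, TRB clonotypes detected -0.0349 to 1.29, TRB clonotypes at equal counts -0.0656 to 1.24, TRB clonotypes of 1% or more -6.56 to 1.44 and TRB CDR3 length over clonotypes 0.256 to 0.35. The ranges went on with TRB CDR3 length over counts 0.749 to 1.09, TRA counts -0.951 to 0.811, TRA clonotypes at equal counts -0.0435 to 1.21, TRA clonality -0.108 to 0.00206 and TRA CDR3 length large minus rare -0.205 to 0.515. Further ranges were TRBV calls 0 to 1, TRBJ calls 0 to 1, TRAV calls 0 to 2 and TRAJ calls 0 to 1. Numbers of counts and clonotypes are on the log2 scale, lengths in residues, and single segments as log2 folds, which for TRBV24, TRBV21 and TRAV13N-3 depend on the fit's handling of values at 0. Depth limits the shallowest D11 and D4 libraries most, with 1749 and 1816 estimated TRB molecules.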
